A study of Homo sapiens with 12 samples.

Results

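Collagen genes encode the chains of the collagens, the most abundant protein family of the extracellular matrix. The genes described here are those whose symbol in the deposited count table has the form COL, a type number, A and a chain number, which gave 43 of 17518 genes. Of these, 27 had enough reads for testing, 14 were seen with few reads, and COL17A1 and COL22A1 had no count in any library. COL8A1 is not in the table analysed here. In control SKM-1 cells, 20 collagen genes were present at a mean of at least 1 CPM (counts scaled to the library total after TMM correction, trimmed means of M values), and the summed collagen level was 444 ± 0.904 CPM (SD, n = 3 libraries), against 215 ± 3.56 CPM after NUDT21 knockdown. The type IV genes COL4A1 and COL4A2, the fibrillar genes COL3A1 and COL27A1, COL26A1 and COL13A1 fell in SKM-1, COL13A1 to no count. COL18A1, COL6A5, COL1A2, COL4A5 and COL15A1 rose. MUTZ-1 cells had collagen reads mostly of COL9A3, at 36.6 to 43.7 CPM over its 6 libraries.

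A collagen chain consists largely of repeats of glycine followed by 2 other residues, often proline and hydroxyproline, and 3 chains wind around each other into a stiff helix. Fibrillar collagens (types I, II, III, V, XI, XXIV and XXVII) form or join fibrils, and type IV collagens form the meshwork of basement membranes. FACIT collagens, the fibril-associated types with interrupted helices, attach to fibril surfaces, the membrane-spanning types stay anchored in the cell that makes them, and the multiplexins XV and XVIII carry sugar chains and lie at basement membranes. In marrow, collagens are made mostly by stromal and vessel-lining cells and form part of the surroundings of blood cells, which bind them through integrins and other receptors.

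RNA of cultured human cells of the lines MUTZ-1 and SKM-1 had been sequenced in 12 libraries. Both lines are given in the labels as marrow-derived cells of myelodysplastic syndrome, in which clonal stem cells form blood poorly. The design text of the series once writes MUTZ-1 where SKM-1 would stand, and the line of each library rests on its title. Each line had 3 control libraries (a control hairpin, genotype WT in the labels) and 3 knockdown libraries with a short hairpin RNA (shRNA) against NUDT21, a subunit of the cleavage factor that helps choose where transcripts are cut and polyadenylated. All cells were grown in medium with serum and antibiotics. The study asked what NUDT21 does when myelodysplastic syndromes transform. Each knockdown library carries the tag sh1 in its description, and no other hairpin tag appears. Effects particular to a hairpin cannot be told apart from those of NUDT21 knockdown. The labels give neither the hairpin sequence nor a stated number of hairpins, nor whether the knockdown cells were a pool or a clone. They also do not give the time after transduction or the cultures behind the replicates. P-values therefore measure the spread between these libraries, which may be technical.

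Libraries held 15843012 to 18426619 counts, and no replicate pair agreed within sampling noise. NUDT21 itself was 301, 297 and 301 CPM in MUTZ-1 control and 135, 136 and 142 CPM in MUTZ-1 knockdown, and 322, 336 and 343 CPM in SKM-1 control and 131, 132 and 129 CPM in SKM-1 knockdown, lower in each knockdown library than in each control library of its line. Markers of blood lineages were read against the labelled cell type. In MUTZ-1 control, 8 of 8 B lineage markers were present with a summed level of 2207 to 2217 CPM. Of 10 myeloid markers 4 were present in MUTZ-1 control (436 to 439 CPM in sum), mostly PTPRC (353 ± 4.14 CPM), which other white cells express too, and SPI1 (79.9 ± 3.58 CPM), while MPO, which defines granulocyte precursors, had no count. In SKM-1 control, 6 of 10 myeloid markers were present (79.4 to 84.2 CPM in sum) with MPO at 0.0181 CPM, against 10 of 10 erythroid markers (1209 to 1227 CPM). The same erythroid list summed to 743 to 763 CPM in MUTZ-1 control with 3 of 10 present, so its sum alone does not mark the lineage. After knockdown in SKM-1, the erythroid sum was 4515 to 4717 CPM, and the myeloid sum 149 to 151 CPM. Of the erythroid markers, 10 of 10 were called higher, where 42.1% of all tested genes rose in SKM-1 and 42.3% fell. The summed level of 10 fibroblast and stromal markers in SKM-1 was 180 to 188 CPM in control and 8.90 to 10.5 CPM after knockdown. FBLN1 made up most of the control sum (171 ± 4.57 CPM) and was at 3.80 ± 0.963 CPM after knockdown. THY1 and POSTN were at 0 in SKM-1 control, and PDGFRA, FAP and THY1 were at 0 after knockdown. Of 5 tested stromal markers, 2 rose and 3 fell. The epithelial sum was 373 to 382 CPM in control and 764 to 789 CPM after knockdown, and 4 of 4 tested members rose. Of 5 endothelial markers in the table, PECAM1 was the 1 member tested and it rose, and the sum was 2.66 to 3.59 CPM in control and 7.13 to 8.61 CPM after knockdown. In MUTZ-1 knockdown, the erythroid sum was 314 to 320 CPM, with 3 of 10 tested markers called higher and 1 lower. The B lineage sum there was 1894.5 to 1941.9 CPM, with 1 of 8 higher and 5 lower. The myeloid sum there was 450 to 473 CPM, with 1 of 6 tested markers higher and 4 lower. Of all tested genes, 24.4% rose and 24.6% fell in MUTZ-1. The part of these marker shifts in the collagen changes was not tested. In bulk RNA, fewer cells of a type and less RNA per cell cannot be told apart.

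Promoter sequences are shown for a few genes chosen for their place in the results: COL13A1, which fell to no count in SKM-1; the divergent pair COL4A1 and COL4A2, which fell, with COL4A5 of the same family, which rose; and COL18A1, the highest collagen gene after knockdown. They are RefSeq sequences of GRCh38.p14, 250 bases ending just before the annotated start, or the whole 126 bases between the starts of COL4A1 (position 110307157, minus strand) and COL4A2 (position 110307284, plus strand). COL18A1 has 2 starts in the table, and counts per gene do not show which was used. Capitals mark matches, on either strand, to 3 promoter motifs. The TATA box was searched as TATAAA. The box named after its letters, CCAAT, was searched as such. The GC box was searched as GGGCGG.
COL13A1, chr10:69801656-69801905, plus strand: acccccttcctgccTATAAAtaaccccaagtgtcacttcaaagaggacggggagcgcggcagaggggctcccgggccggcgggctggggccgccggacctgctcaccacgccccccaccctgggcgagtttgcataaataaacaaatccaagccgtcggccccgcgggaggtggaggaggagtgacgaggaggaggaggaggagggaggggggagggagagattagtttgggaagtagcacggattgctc
COL4A1 to COL4A2, chr13:110307158-110307283, plus strand: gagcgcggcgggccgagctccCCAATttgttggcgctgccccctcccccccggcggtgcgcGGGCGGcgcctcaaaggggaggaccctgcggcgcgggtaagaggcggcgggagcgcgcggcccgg
COL4A5, chrX:108439588-108439837, plus strand: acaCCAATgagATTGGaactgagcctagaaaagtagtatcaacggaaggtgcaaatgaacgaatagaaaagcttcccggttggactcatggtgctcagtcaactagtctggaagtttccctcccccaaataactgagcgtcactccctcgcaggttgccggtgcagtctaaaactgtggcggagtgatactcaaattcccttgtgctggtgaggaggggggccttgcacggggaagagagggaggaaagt
COL18A1, upstream start, chr21:45404915-45405164, plus strand: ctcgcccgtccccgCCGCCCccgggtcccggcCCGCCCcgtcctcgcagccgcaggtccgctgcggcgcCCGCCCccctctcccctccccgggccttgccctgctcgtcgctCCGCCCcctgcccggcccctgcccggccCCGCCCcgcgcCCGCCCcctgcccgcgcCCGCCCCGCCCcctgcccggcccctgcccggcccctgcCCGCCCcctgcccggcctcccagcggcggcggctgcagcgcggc
COL18A1, downstream start, chr21:45455272-45455521, plus strand: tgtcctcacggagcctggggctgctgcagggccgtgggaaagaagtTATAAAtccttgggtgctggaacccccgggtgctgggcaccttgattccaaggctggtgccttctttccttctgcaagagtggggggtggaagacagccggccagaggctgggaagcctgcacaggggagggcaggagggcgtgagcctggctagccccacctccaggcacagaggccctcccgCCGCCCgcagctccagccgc

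The COL13A1 stretch holds 1 TATA box and neither a CCAAT nor a GC box. The interval shared by COL4A1 and COL4A2 holds 1 CCAAT box and 1 GC box, and the COL4A5 stretch holds 2 CCAAT boxes on opposite strands. The upstream COL18A1 stretch, with 88.4% G and C, holds 9 GC boxes, and the downstream stretch 1 TATA box and 1 GC box. A RefSeq promoter was found for 32 of the 43 collagen genes, with 44 starts. A TATA box lay in 8 of these 44 stretches, a CCAAT box in 12 and a GC box in 24. Over the 35116 promoters of the table, the shares holding each motif in the same 250 bases were 10.7%, 32.0% and 42.6%. A GATA motif (AGATAA) lay in 4 of the 44 stretches (9.17% of all promoters) and an AP-1 motif (TGACTCA) in 0 (4.20%). Of the 6 genes with a promoter that rose in SKM-1, 5 had a GC box, and of the 12 that fell, 9 had one. These are letter matches at any distance from the start, the TATA box of COL13A1 near the far end of its stretch, and show no binding.

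Collagen genes were widely represented in SKM-1 control cells. A gene is called present at a group mean of at least 1 CPM, low from 0.1 CPM, and trace below that with at least 1 count. By this division 20 of 43 were present, 11 low and 8 trace, and 4 had no count. After knockdown 15 were present, 15 low and 5 trace, and 8 had no count. Every structural type had a present member in SKM-1 control except the short-chain network type, whose COL8A2 was low. On the scale that corrects for transcript length and depth (FPKM), the highest level in SKM-1 control was that of COL4A2 at 22.2 ± 0.258 FPKM. COL26A1 followed at 11.8 ± 0.559, COL3A1 at 8.86 ± 0.422, COL18A1 at 6.11 ± 0.129 and COL27A1 at 5.67 ± 0.139 FPKM, each further from the next than their SDs. COL4A1 at 4.13 ± 0.152 and COL13A1 at 3.22 ± 0.241 FPKM came next. COL14A1, COL15A1 and COL1A2 (0.565, 0.562 and 0.551 FPKM) did not differ beyond their SDs. After knockdown COL18A1 was highest at 18.9 ± 0.171 FPKM, followed by COL6A5 at 3.46 ± 0.143, COL1A2 at 2.03 ± 0.168, COL15A1 at 1.56 ± 0.0582 and COL4A2 at 1.50 ± 0.127 FPKM, the last pair within their SDs.

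**Figure D1:**
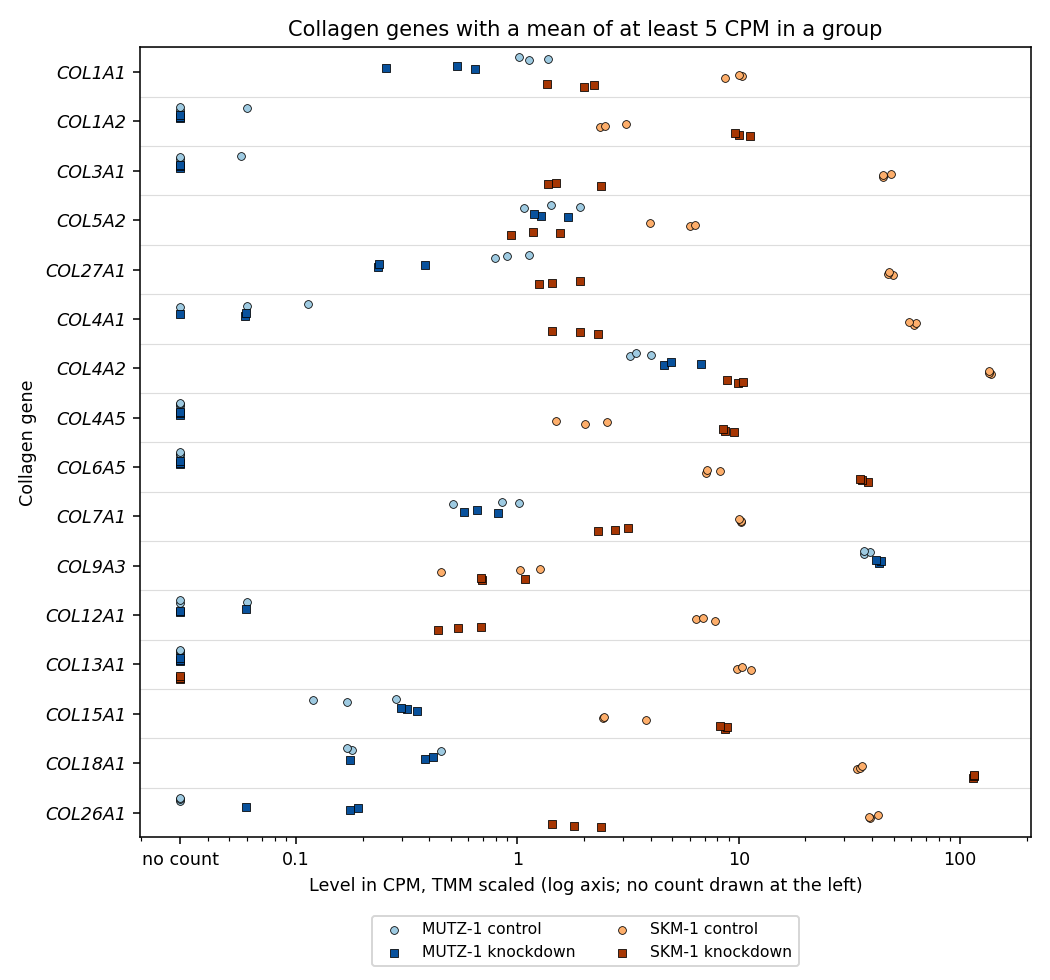
Level of the 16 collagen genes whose mean reached 5 CPM in a group, in each of the 12 libraries, on a log axis in CPM (circles for control, squares for knockdown; a library without a count is drawn at the left edge). In SKM-1 the groups are apart for each gene shown except COL9A3, and COL9A3 is the gene shown whose MUTZ-1 libraries are above those of SKM-1, at 36.6 to 43.7 CPM.

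In SKM-1, 26 of the 27 tested collagen genes changed after NUDT21 knockdown at an adjusted p under 0.05 (edgeR's quasi-likelihood test, Benjamini-Hochberg adjustment over 13625 genes). Of these, 8 rose and 18 fell, where 42.1% of all tested genes rose and 42.3% fell. At least 2-fold changes were called for 8 that rose and 17 that fell, where 12.6% of all tested genes rose and 22.5% fell by that much. The median log2 fold change of the 27 was -1.99, also with COL13A1 at its lower bound, and that of all tested genes was 0.00. The groups did not overlap for 26 of the 27, all but COL9A3, where they did not overlap for 84.6% of all tested genes. A collagen gene with few reads could enter the test through the group in which it was higher, so these counts are a description of the tested genes. The median log2 fold change of all tested genes in SKM-1 also differed between chromosomes. It is given beside the collagen genes of the chromosomes furthest from 0, and its part in their changes was not tested.

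The fibrillar genes mostly fell in SKM-1, 8 of 9 tested, and COL1A2 rose. COL3A1 (chromosome 2, positions 188974373 to 189012746, plus strand), the chain of type III collagen of skin and vessel walls, was at 45.0, 44.7 and 48.8 CPM in control and 2.38, 1.38 and 1.49 CPM after knockdown. COL27A1 (chromosome 9, positions 114154098 to 114312511, plus strand), a fibrillar gene known from cartilage, was at 49.5, 47.4 and 47.9 CPM and then at 1.25, 1.44 and 1.92 CPM. These were the largest falls in level among fibrillar genes, with log2 fold changes of -4.72 ± 0.13 SE for COL3A1 (adjusted p = 1.11e-90) and -4.97 ± 0.13 for COL27A1 (adjusted p = 9.42e-96). COL5A2 (chromosome 2, positions 189031898 to 189441111, minus strand), a chain of the type V collagen that limits fibril width, lies next to COL3A1 and was at 6.01, 6.35 and 3.96 CPM in control and 0.940, 1.55 and 1.18 CPM after knockdown (-2.14 ± 0.24, adjusted p = 3.35e-16). The per-length ratio of COL3A1 to COL5A2 went from 11.4 ± 3.71 to 1.98 ± 1.10, so the neighbours fell by unequal amounts.

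The chains of type I collagen, the main collagen of bone and skin, moved in opposite directions. COL1A1 (chromosome 17, positions 50184101 to 50201631, minus strand) was at 8.71, 10.4 and 10.0 CPM in control and 2.00, 2.21 and 1.36 CPM after knockdown (log2 fold change -2.37 ± 0.19 SE, adjusted p = 8.51e-26). COL1A2 (chromosome 7, positions 94394895 to 94431227, plus strand) was at 2.36, 2.50 and 3.10 CPM and then at 11.3, 10.0 and 9.61 CPM (1.96 ± 0.18, adjusted p = 2.45e-21). For both genes the knockdown libraries lay apart from the control libraries. Type I collagen is usually built from COL1A1 and COL1A2 chains with COL1A1 in excess. The per-length ratio of COL1A1 to COL1A2 transcripts was 3.16, 3.56 and 2.76 in the control libraries and 0.152, 0.189 and 0.122 after knockdown. The median log2 fold change of all tested genes was 0.35 on chromosome 7 and -0.09 on chromosome 17.

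**Figure D2:**
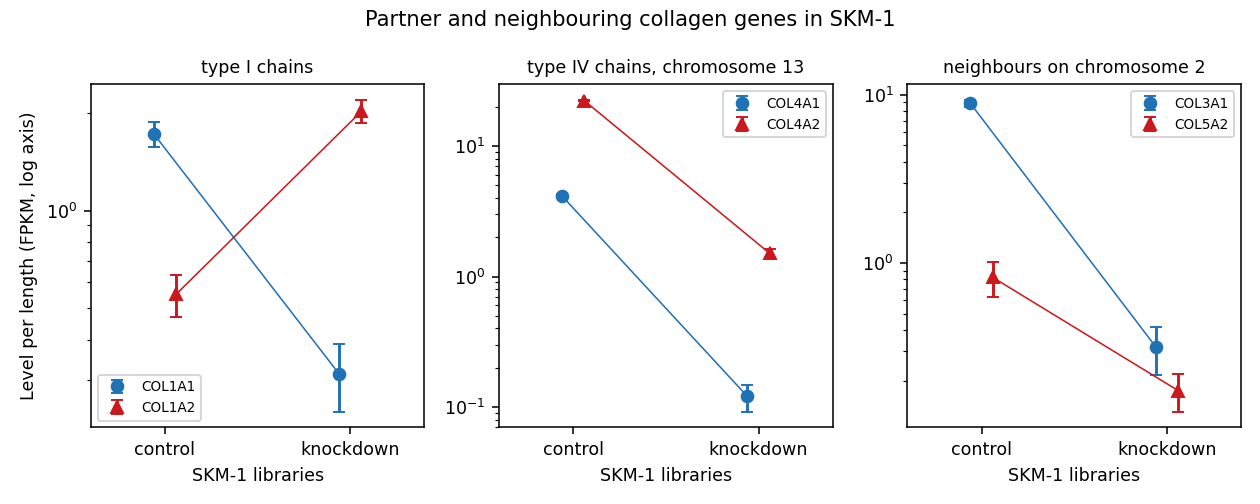
Per-length levels (FPKM, log axes) of 3 pairs of collagen genes in SKM-1 control and knockdown, as mean with SD over 3 libraries. The lines of COL1A1 and COL1A2 cross, with a ratio of 3.16 before and 0.154 after knockdown, and both genes fall in the other pairs.

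The other fibrillar genes were lower in level. COL11A2, a chain of the type XI collagen of cartilage and ear, fell from 1.89 ± 0.223 to 0.596 ± 0.136 CPM, and COL24A1, expressed in forming bone, fell from 2.72 ± 0.122 to 0.427 ± 0.210 CPM. COL2A1, the main cartilage collagen, had 51 counts over the control libraries and 2 after knockdown, a ratio of 23.2 (95% interval 6.10 to 197). COL5A1, the partner chain of COL5A2, had 50 and 3 counts, a ratio of 15.2 (4.90 to 76.0). Adjusted p-values for these 4 genes were at most 8.91e-07 (edgeR). Intervals here and below cover counting error only. COL11A1 had 3 counts after knockdown and none in control, and COL5A3 had none in SKM-1.

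Type IV collagen genes were the largest collagen class in SKM-1 control and split by gene pair. COL4A1 (chromosome 13, positions 110148963 to 110307157, minus strand) and COL4A2 (chromosome 13, positions 110307284 to 110513209, plus strand) encode the chains of the common basement membrane network and start 126 bases apart on opposite strands, at the interval printed above. COL4A1 was at 61.7, 62.9 and 58.7 CPM in control and 2.32, 1.91 and 1.43 CPM after knockdown. COL4A2 was at 137, 136 and 135 CPM and then at 9.90, 10.5 and 8.81 CPM. Control and knockdown libraries were far apart for both. The log2 fold changes were -5.01 ± 0.11 SE for COL4A1 (adjusted p = 8.72e-105) and -3.80 ± 0.07 for COL4A2 (adjusted p = 1.01e-126). The per-length ratio of COL4A1 to COL4A2 was 0.186 ± 0.00579 in control and 0.0798 ± 0.0154 after knockdown. All tested genes of chromosome 13 had a median log2 fold change of -1.09 in SKM-1, and relative to that median COL4A1 was at -3.93 and COL4A2 at -2.71. Together the pair made up 44.3% ± 0.715 of the collagen counts in control and 5.40% ± 0.473 after knockdown.

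COL4A5 (chromosome X, positions 108439838 to 108697545, plus strand), a chain of the network of kidney glomeruli, moved the other way. It was at 2.02, 2.55 and 1.49 CPM in control and 9.52, 8.67 and 8.50 CPM after knockdown, with no overlap (log2 fold change 2.13 ± 0.20 SE, adjusted p = 5.37e-21). The median over chromosome X was -0.46, so that COL4A5 stood at 2.59 relative to it. Its divergent neighbour COL4A6 had 2 counts in control and 5 after knockdown and was not tested. COL4A3 had 5 counts in control and none after knockdown, and COL4A4 had 1 and 1.

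COL18A1 became the main collagen transcript of SKM-1. This gene (chromosome 21, positions 45405165 to 45513720, plus strand) encodes the multiplexin from whose end endostatin, an inhibitor of vessel growth, is cut. It was at 34.3, 35.3 and 35.8 CPM in control and 114, 115 and 116 CPM after knockdown (log2 fold change 1.71 ± 0.05 SE, adjusted p = 8.55e-80), and its share of collagen counts went from 7.91% ± 0.190 to 53.6% ± 1.24. COL15A1 (chromosome 9, positions 98943907 to 99070787, plus strand), the other multiplexin, was at 3.82, 2.44 and 2.47 CPM and then at 8.64, 8.85 and 8.19 CPM (1.55 ± 0.18, adjusted p = 1.21e-14). Each knockdown library was above each control library for both. The chromosome 21 median was 0.47, which leaves COL18A1 at 1.24 relative to it. The end of COL18A1 overlaps SLC19A1, a folate carrier gene on the opposite strand, which rose in SKM-1 from 47.9 ± 1.83 to 113 ± 0.794 CPM. In MUTZ-1 control SLC19A1 was at 70.7 ± 2.44 CPM while COL18A1 had 14 counts over 3 libraries.

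Of the type VI family, COL6A5 rose and COL6A1 fell. COL6A5 (chromosome 3, positions 130345672 to 130484846, plus strand), which encodes a chain that can stand in for COL6A3 and is known from skin, was at 7.13, 8.25 and 7.18 CPM in control and 38.2, 36.1 and 35.2 CPM after knockdown (log2 fold change 2.28 ± 0.10 SE, adjusted p = 3.08e-55). COL6A1, a constant chain of the beaded filaments around cells, fell from 2.09 ± 0.496 to 0.713 ± 0.271 CPM (-1.53 ± 0.34, adjusted p = 1.73e-05), while all tested genes of chromosome 21 had a median of 0.47. The remaining chains were near the detection limit. COL6A2 had 8 counts in control and 18 after knockdown, COL6A3 had 14 and 19, and COL6A6 had 3 and 16, none of them tested. The related COL28A1 had 27 counts in SKM-1 control and 0 after knockdown, at least 8.19-fold lower by a floor of 3 counts over the group, and was not tested. In MUTZ-1 it had 19 and 31 counts.

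Other types had 1 or a few members in SKM-1, and most of these fell. COL26A1 (chromosome 7, positions 101362388 to 101559024, plus strand), a short collagen first known from testis and ovary, was at 39.3, 38.7 and 42.3 CPM in control and 2.38, 1.79 and 1.43 CPM after knockdown (log2 fold change -4.42 ± 0.13 SE, adjusted p = 6.10e-84). COL7A1 (chromosome 3, positions 48564073 to 48595329, minus strand), the anchoring fibril of skin, was at 10.3, 10.3 and 10.1 CPM and then at 2.32, 2.75 and 3.16 CPM (-1.89 ± 0.18, adjusted p = 5.12e-21). COL8A2, a short-chain network collagen of the corneal basement membrane, fell from 0.916 ± 0.335 to 0.225 ± 0.0903 CPM (adjusted p = 2.87e-04, edgeR). COL10A1, the short-chain collagen of growth cartilage, had 2 counts in control and none after knockdown.

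FACIT genes were split, with 2 rising, 3 falling and COL9A3 not called among 6 tested. COL12A1 (chromosome 6, positions 75084326 to 75206053, minus strand), found along type I fibrils in tendon, was at 7.81, 6.40 and 6.89 CPM in control and 0.438, 0.538 and 0.682 CPM after knockdown (log2 fold change -3.65 ± 0.28 SE, adjusted p = 1.38e-28). Its relative COL14A1 fell less, from 4.79 ± 0.405 to 3.12 ± 0.214 CPM (-0.62 ± 0.21, adjusted p = 0.00431). COL19A1, a rare FACIT of basement membrane zones, fell from 1.45 ± 0.189 to 0.142 ± 0.0898 CPM (-3.28 ± 0.49). COL21A1, a FACIT of vessel walls, rose from 0.412 ± 0.145 to 2.62 ± 0.368 CPM (2.65 ± 0.36) and COL9A2 from 0.300 ± 0.0940 to 0.943 ± 0.0479 CPM (1.64 ± 0.43). Chromosome 6, which holds COL12A1, COL19A1, COL21A1 and COL11A2, had a median of 0.35. The untested COL9A1 had 27 counts in control and 7 after knockdown, COL16A1 had 4 and 2, and COL20A1 had 3 and none.

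Among membrane-spanning collagens, COL13A1 fell to no count and COL23A1 rose from 1 count. COL13A1 (chromosome 10, positions 69801906 to 69959144, plus strand), which takes part in cell adhesion and the nerve-muscle junction, was at 11.3, 9.82 and 10.3 CPM in SKM-1 control, 563 counts in all, and had 0 counts in each knockdown library. By a floor of 3 counts over the group it was at least 171-fold lower (adjusted p = 2.23e-50, edgeR), and 0 counts allow a mean of up to 0.0615 CPM. COL13A1 entered the test through SKM-1 control alone, and its fall was known when the collagen genes were chosen. Its p-value is therefore a description and no independent support. Chromosome 10 had a median of 0.14. COL23A1, related to COL13A1, had 1 count in control and 34 after knockdown, a ratio of 37.4 (95% interval 6.27 to 1519; adjusted p = 4.58e-07), which came to 0.814, 0.598 and 0.682 CPM in the knockdown libraries. COL25A1, the membrane collagen that gives rise to a component of amyloid plaques, had 32 and 21 counts and was not tested.

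**Figure D3:**
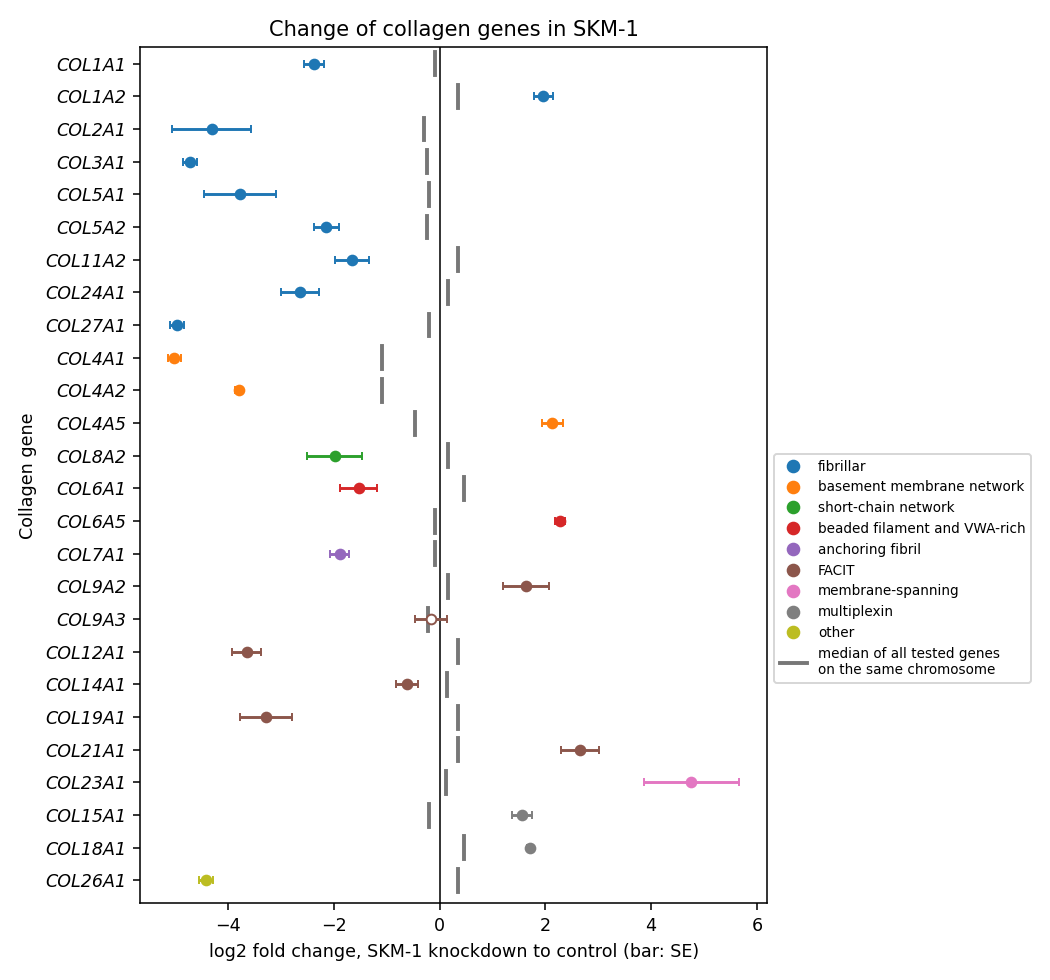
Log2 fold change from SKM-1 control to knockdown of 26 tested collagen genes, with SE bars, coloured by structural type. The open circle is COL9A3, which was not called, short grey lines are the median of all tested genes on the gene's chromosome, and COL13A1 is not drawn since it had no count after knockdown. COL2A1, COL5A1 and COL23A1 had 1 to 3 counts in a group, so that their fitted values depend on the prior count.

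By type, the fibrillar sum in SKM-1 was 119 ± 1.23 CPM in control and 17.9 ± 1.05 CPM after knockdown, and the type IV sum was 199 ± 3.66 and 20.6 ± 1.63 CPM. The membrane-spanning sum was 11.1 ± 0.807 and 1.13 ± 0.119 CPM. The FACIT sum was 15.5 ± 0.438 and 8.37 ± 0.584 CPM. Sums were higher after knockdown for the multiplexins (38.0 ± 0.303 and 124 ± 0.951 CPM) and for the type VI family with COL28A1 (10.6 ± 1.05 and 38.3 ± 1.59 CPM). For each of these sums the control and knockdown libraries of SKM-1 did not overlap. The total over 43 genes was 443 to 445 CPM in control and 211 to 217 CPM after knockdown, 2.07-fold lower. These sums are descriptions with no test.

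**Figure D4:**
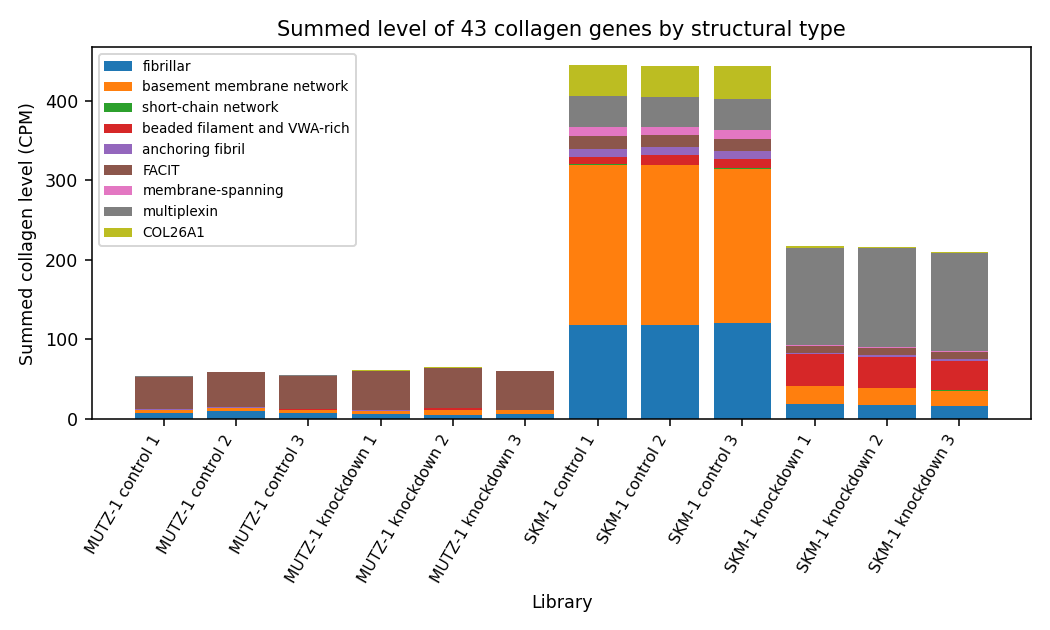
Summed level in CPM of the 43 collagen genes in each of the 12 libraries, stacked by structural type. Control SKM-1 bars reach 443 to 445 CPM with type IV the largest part, knockdown SKM-1 bars reach 211 to 217 CPM with multiplexins the largest part, and MUTZ-1 bars stay between 53.9 and 64.8 CPM.

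MUTZ-1 control cells had 7 collagen genes present, 9 low and 9 trace, and 18 with no count, and the summed level was 53.9 to 59.6 CPM, 7.92-fold below SKM-1 control. COL9A3 (chromosome 20, positions 62816213 to 62841159, plus strand), a chain of the cartilage FACIT type IX, was not at trace level there. It was at 36.9, 39.1 and 36.6 CPM and gave 67.0% ± 1.43 of the collagen counts. COL11A2 (4.11 ± 0.317 CPM), COL4A2 (3.56 ± 0.399), COL9A2 (2.60 ± 0.364), COL19A1 (1.60 ± 0.171), COL5A2 (1.47 ± 0.420) and COL1A1 (1.17 ± 0.182) were the other present members. Several genes with reads in SKM-1 control were at or close to zero in MUTZ-1 control. COL13A1, COL6A5, COL4A5, COL26A1, COL2A1, COL8A2 and COL21A1 had no count in 3 libraries, where 0 counts allow a mean of up to 0.0576 CPM. COL1A2, COL3A1, COL6A1 and COL12A1 had 1 count each and COL4A1 had 3.

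Between the control lines, 3 of 27 tested collagen genes were higher in MUTZ-1 and 22 were lower, where 41.4% of all tested genes were higher and 48.8% lower (edgeR, adjusted p under 0.05). The genes higher in MUTZ-1 were COL9A3, COL9A2 and COL11A2, by 5.35 ± 0.13, 3.09 ± 0.35 and 1.12 ± 0.22 on the log2 scale. COL19A1 and COL23A1 were not called. The median log2 difference was -4.05 with the 7 genes that had no count in MUTZ-1 control at their lower bounds, against -0.11 over all tested genes. Of the 27, 12 had at most 3 counts in both MUTZ-1 groups and could enter the test only through SKM-1. Others, among them COL5A1, COL14A1, COL15A1, COL18A1 and COL26A1, could not have entered through MUTZ-1 either. These had at most 8 counts in any MUTZ-1 library, under the filter's minimum count of 10. The numbers of genes called and the median are therefore a description of the tested genes. COL4A2 was 5.25 ± 0.08 lower on the log2 scale in MUTZ-1. COL3A1 had 2474 counts in SKM-1 control against 1 in MUTZ-1 control, a ratio of 2403 (95% interval 431 to 94939), and COL26A1, with 2150 against 0, was at least 696-fold lower. COL13A1 was at least 182-fold lower in MUTZ-1 control than in SKM-1 control.

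In MUTZ-1, NUDT21 knockdown changed 7 of 27 tested collagen genes, 4 higher and 3 lower, where 24.4% of all tested genes rose and 24.6% fell. Of the 27, 12 had at most 3 counts in both MUTZ-1 groups, 6 of them none, so no fold is given for them. Over the other 15 the median log2 fold change was 0.07, with genes absent from 1 group at their bounds, and over all tested genes it was 0.00. The groups did not overlap for 10 of the 27, where they did not overlap for 53.6% of all tested genes. COL9A3 rose from 36.9, 39.1 and 36.6 CPM to 43.1, 43.7 and 41.7 CPM, a log2 fold change of 0.19 ± 0.07 SE (adjusted p = 0.0145). COL9A2, its partner chain in type IX, rose from 2.26, 2.99 and 2.54 to 4.33, 4.84 and 4.64 CPM (0.82 ± 0.22, adjusted p = 5.78e-04). The end of COL9A3 overlaps TCFL5 on the opposite strand, which rose in MUTZ-1 from 59.1 ± 1.26 to 68.1 ± 1.01 CPM. In SKM-1 control TCFL5 was at 47.5 ± 2.31 CPM while COL9A3 had 49 counts in 3 libraries.

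COL4A2 rose in MUTZ-1 from 3.23, 4.0 and 3.45 CPM to 4.57, 6.74 and 4.94 CPM (log2 fold change 0.60 ± 0.14 SE, adjusted p = 1.04e-04), while COL4A1 had 3 and 2 counts. COL26A1 had no count in MUTZ-1 control and 7 after knockdown, at least 2.45-fold higher (adjusted p = 0.00420). COL1A1 fell from 1.13, 1.37 and 1.02 CPM to 0.644, 0.254 and 0.536 CPM (-1.26 ± 0.36, adjusted p = 0.00154). COL27A1 fell from 0.940 ± 0.174 to 0.285 ± 0.0841 CPM (-1.71 ± 0.39, adjusted p = 6.91e-05) and COL11A2 from 3.96, 4.48 and 3.90 to 2.64, 2.42 and 2.92 CPM (-0.63 ± 0.21, adjusted p = 0.00910). The call of COL11A2 was lost without MUTZ-1 control replicate 2 (adjusted p = 0.0643) or MUTZ-1 knockdown replicate 2 (adjusted p = 0.0557), and that of COL9A3 in the fit of log2(FPKM + 0.1) (adjusted p = 0.443). COL19A1 was at 1.60 ± 0.171 CPM in control and 0.969 ± 0.0786 CPM after knockdown and missed the threshold (-0.72 ± 0.32, adjusted p = 0.0564). COL5A2 was at 1.47 ± 0.420 and 1.39 ± 0.273 CPM.

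**Figure D5:**
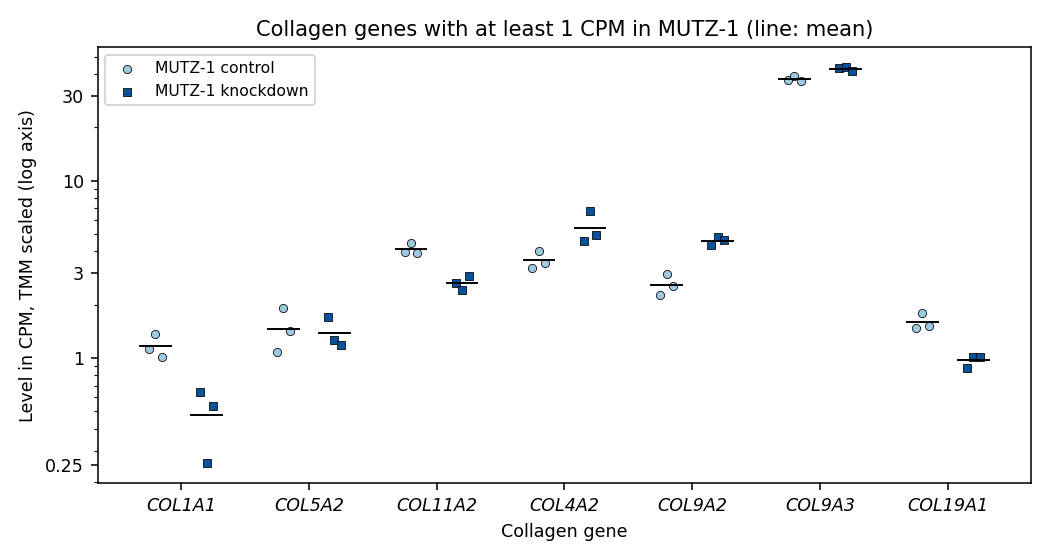
Levels in CPM (log axis) of the 7 collagen genes whose mean reached 1 CPM in a MUTZ-1 group, with a point per library and a line at the mean. COL9A3 is at 36.6 to 39.1 CPM in control and 41.7 to 43.7 CPM after knockdown, and the other genes are below 10 CPM.

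The knockdown effects of the lines were set against each other in the same fit. Of the 27 genes, 10 had a higher log2 fold change in MUTZ-1 than in SKM-1 and 2 a lower one, where 36.4% of all tested genes were higher and 35.6% lower. The difference carries little information for genes without reads in MUTZ-1. COL4A2 rose in MUTZ-1 and fell in SKM-1, a difference of 4.40 ± 0.16 on the log2 scale (adjusted p = 2.56e-68), and COL26A1, with 7 counts in MUTZ-1, did so as well. COL1A1, COL11A2 and COL27A1 fell in both lines, by 1.11 ± 0.45, 1.03 ± 0.39 and 3.26 ± 0.56 less in MUTZ-1 (adjusted p = 0.0201, 0.0144 and 4.23e-08). COL9A2 rose in both, with a difference of -0.81 ± 0.48 that did not pass (adjusted p = 0.125). COL18A1, with 14 and 16 counts in MUTZ-1, and COL23A1, with 2 and 1, had the lower log2 fold change in MUTZ-1 (adjusted p = 0.0120 and 0.0233). The COL1A1 difference was not called without MUTZ-1 knockdown replicate 1 (adjusted p = 0.140), MUTZ-1 knockdown replicate 3 (0.0589) or SKM-1 knockdown replicate 3 (0.0581), and that of COL11A2 was not called on log2(FPKM + 1) (0.370).

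Genes that make, process, bind and degrade collagen were taken from lists chosen by role. The enzymes that hydroxylate and glycosylate collagen chains in the endoplasmic reticulum had 13 tested members in SKM-1, of which 5 rose and 8 fell, with a median log2 fold change of -0.31. PLOD2, the lysyl hydroxylase of the chain ends, fell from 145 ± 3.65 to 5.27 ± 1.15 CPM. P3H4, a partner of the hydroxylases, fell from 67.6 ± 2.66 to 4.71 ± 0.526 CPM and P4HA1, which hydroxylates the prolines that hold the helix, from 144 ± 1.05 to 47.8 ± 1.02 CPM. COLGALT2, which adds galactose to hydroxylysine, rose from 24.6 ± 1.13 to 101 ± 2.58 CPM. In MUTZ-1, 3 of the 13 rose and 3 fell, among them P3H4 from 2.43 ± 0.247 up to 5.85 ± 0.275 CPM and PLOD3 from 24.5 ± 1.73 up to 31.6 ± 2.92 CPM.

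Of 12 tested chaperones and export factors, 6 rose and 5 fell in SKM-1 (median 0.16). FKBP10, a folding chaperone for procollagen, fell from 478 ± 6.01 to 13.4 ± 0.226 CPM. The coat proteins of export vesicles fell too, SEC24D from 92.4 ± 1.30 to 29.1 ± 1.90 CPM and SEC23A from 110 ± 3.63 to 36.7 ± 1.68 CPM, while CREB3L1, a transcription factor of the secretory pathway, rose from 6.48 ± 0.783 to 15.6 ± 1.51 CPM. The sum over the 12 genes in SKM-1 was 2136 to 2152 CPM in control and 2348 to 2428 CPM after knockdown. In MUTZ-1, 4 rose and 3 fell, with SERPINH1, the collagen chaperone HSP47, rising from 2.11 ± 0.180 to 5.35 ± 0.532 CPM and KDELR2, which retrieves chaperones, falling from 175 ± 0.939 to 159 ± 2.88 CPM. SERPINH1 rose in SKM-1 too, from 109 ± 6.01 to 142 ± 3.93 CPM. Of 9 tested genes for propeptide removal and crosslinking, 5 rose and 4 fell in SKM-1 (median 0.22). Among propeptide proteases, ADAMTS3 rose from 9.88 ± 0.0994 to 39.4 ± 1.65 CPM and ADAMTS14 from 30.5 ± 1.73 to 98.3 ± 2.68 CPM. TGM2, a crosslinking enzyme, rose from 42.9 ± 1.33 to 171 ± 1.97 CPM. PCOLCE2, an enhancer of propeptide cleavage, fell from 15.3 ± 1.26 to 5.42 ± 0.775 CPM. In MUTZ-1, 2 rose and 0 fell, PCOLCE from 5.99 ± 0.895 to 8.11 ± 0.486 CPM and BMP1 from 8.11 ± 0.765 to 9.76 ± 0.576 CPM.

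Of 9 tested collagen receptor genes, 3 rose and 4 fell in SKM-1 (median 0.04). ITGA2, the alpha chain of a collagen-binding integrin, fell from 154 ± 0.616 to 3.69 ± 0.239 CPM and DDR2, a receptor kinase for fibrillar collagen, from 58.6 ± 2.14 to 9.74 ± 0.795 CPM. GP6, the platelet collagen receptor, rose from 4.36 ± 0.812 to 10.6 ± 0.740 CPM and MRC2, which takes up collagen fragments, from 14.7 ± 1.53 to 29.2 ± 0.660 CPM. In MUTZ-1, DDR1 rose from 8.01 ± 0.418 to 11.5 ± 0.906 CPM and 0 of 9 fell. Of 10 tested genes of collagen breakdown, 4 rose and 5 fell in SKM-1 (median -0.49). Among those that rose, TIMP1 went from 31.6 ± 0.977 to 143 ± 4.24 CPM. CTSL went from a mean of 27.9 CPM to a mean of 89.7 CPM. TIMP2, an inhibitor of matrix proteases, fell from 141 ± 2.52 to 4.11 ± 0.518 CPM, the membrane protease MMP16 from 16.8 ± 1.24 to 0.550 ± 0.211 CPM, the inhibitor RECK from 13.9 ± 0.0375 to 0.660 ± 0.353 CPM and the gelatinase MMP2 from 9.16 ± 0.683 to 0.631 ± 0.338 CPM. In MUTZ-1, 3 rose and 0 fell, CTSK from 2.42 ± 0.287 to 5.10 ± 0.871 CPM and RECK from 17.3 ± 0.976 to 21.9 ± 0.958 CPM among them.

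Of 17 tested basement membrane and matrix partners, 7 rose and 9 fell in SKM-1 (median -0.41). NID1, which links laminin to type IV collagen, fell from 73.0 ± 1.80 to 2.24 ± 0.405 CPM, and the laminin chains LAMC1 and LAMA3 from 193 ± 2.64 to 14.5 ± 0.428 and from 16.7 ± 1.65 to 0.226 ± 0.132 CPM. FBLN1, a fibulin also on the stromal list, is given above. LAMA5, another laminin chain, rose from 160 ± 2.21 to 170 ± 1.76 CPM. Larger rises were those of FN1, from 61.2 ± 3.72 to 147 ± 2.45 CPM, and AGRN, from 93.5 ± 2.37 to 196 ± 3.71 CPM. HSPG2, the basement membrane proteoglycan perlecan, was at 266 ± 7.20 and 256 ± 10.3 CPM in SKM-1 and was not called (adjusted p = 0.0534). In MUTZ-1, 5 of 17 rose and 0 fell, HSPG2 from 4.51 ± 0.715 to 12.5 ± 1.13 CPM and LAMA5 from 14.1 ± 2.12 to 22.7 ± 1.01 CPM among them (median 0.69). These counts stand against 42.1% of all tested genes rising and 42.3% falling in SKM-1, and 24.4% and 24.6% in MUTZ-1.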

How the data were processed

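Poly(A)-selected, stranded RNA libraries (TruSeq, per the labels' protocols) of 12 samples were used. Per the submitters' processing notes, fastp, HISAT2 and HTSeq were used with GRCh38. Versions, annotation and HTSeq's strand setting are not stated there. The deposited whole-number counts per gene were tested as deposited, and the deposited FPKM values served for per-length levels and for an alternative on log2(FPKM + 1) or log2(FPKM + 0.1) with limma 3.58.1. In edgeR 4.0.16 (R 4.3.3), filterByExpr kept 13625 genes, counts were scaled by TMM (factors 0.959 to 1.06), and a quasi-likelihood fit with 4 group means over the 12 libraries (8 residual degrees of freedom) gave 4 contrasts. P-values were adjusted by Benjamini-Hochberg over all genes tested, with a threshold of 0.05. CPM are on the TMM scale, given as mean ± SD of 3 libraries. Log2 fold changes carry SE = size divided by the square root of F. Groups with no count were set to a floor of 3 counts, and ratios with 1 to 3 counts carry exact binomial 95% intervals.

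The collagen genes and the lists were chosen with earlier results of these data known. The naming rule took each tested collagen gene, with values per library from a mean of 5 CPM, and per role list the 4 called genes with the largest change in SKM-1 and the 2 in MUTZ-1 with at least 5 CPM in a group. Outside this rule, TIMP1, CTSL, FN1 and AGRN were added as genes that rose in SKM-1. Gene positions and promoters are from RefSeq (GRCh38.p14) and overlaps from GENCODE release 29. Of the 27 tested genes, 14 have an annotated gene on the opposite strand, with which reads could be shared if strand was not used. Protein sequences were not analysed here. Alternatives were DESeq2 1.42.0, library totals without TMM, 2 other filters, FPKM, a replicate term, a fit per line and leaving out each library.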

Additional observations from a re-analysis of the deposited data

Results flagged for a closer look

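For 5 collagen genes with at least 1 CPM in control cells of both lines, the test of the difference between the knockdown effects passed (log2 fold change in MUTZ-1 minus that in SKM-1, edgeR, Benjamini-Hochberg over all genes). The difference was 4.40 ± 0.16 SE for COL4A2 (adjusted p = 2.56e-68), which rose by 0.60 in MUTZ-1 and fell by 3.80 in SKM-1. It was 2.56 ± 0.63 for COL19A1 (adjusted p = 1.13e-04), with -0.72 in MUTZ-1 (not called) and -3.28 in SKM-1, and 2.07 ± 0.38 for COL5A2 (adjusted p = 3.20e-07), with -0.07 in MUTZ-1 (not called) and -2.14 in SKM-1. COL1A1 and COL11A2 fell in both lines, with differences of 1.11 ± 0.45 (adjusted p = 0.0201) and 1.03 ± 0.39 (adjusted p = 0.0144). The COL1A1 difference was not called without MUTZ-1 knockdown replicate 1 (0.140), MUTZ-1 knockdown replicate 3 (0.0589) or SKM-1 knockdown replicate 3 (0.0581). That of COL11A2 was not called on log2(FPKM + 1) with limma (0.370). The chromosome 13 median of -1.09 in SKM-1 stands beside the COL4A2 value. Each group has 3 libraries.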

How the results depend on the processing

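The 26 collagen genes called in SKM-1 were called in each setting in which they were tested. Leaving out 1 library at a time gave 8 to 8 genes higher and 18 to 20 lower in SKM-1, 4 to 5 and 2 to 3 in MUTZ-1, 3 to 3 and 22 to 23 between the control lines, and 9 to 11 and 1 to 2 for the difference of effects, the 1 without MUTZ-1 control replicate 1, MUTZ-1 control replicate 2 or MUTZ-1 knockdown replicate 1. That difference had 1 gene lower with a filter of at least 1 CPM in 3 libraries, 19 higher and 7 lower on log2(FPKM + 1) and 18 and 7 on log2(FPKM + 0.1); the cause was not tested. Directions reversed for uncalled log2 values. COL5A2 in MUTZ-1 (-0.07) ranged from -0.23 to 0.18 without 1 library, above 0 without MUTZ-1 control replicate 2, knockdown replicate 2 or knockdown replicate 3. COL9A3 in SKM-1 (-0.16) ranged from -0.48 to 0.14, the latter without SKM-1 control replicate 3. Between control lines, COL19A1 (0.13) became -0.00270 with library totals and ranged from -0.00221 to 0.19 without 1 library, and COL23A1 (0.82) from -1.84 to 2.63, both lower ends without MUTZ-1 control replicate 2. COL19A1 in MUTZ-1 passed on log2(FPKM + 0.1) (adjusted p = 0.0190) and with that line alone (0.0391). Library totals moved the median of all genes by 0.13 for the difference of effects and by -0.14 between control lines, and raised the share of higher calls in MUTZ-1 from 49.8% to 60.7%, with 4 and 3 collagen genes called as before. Subtracting the chromosome median changed the direction of none of the 26 genes called in SKM-1.

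A replicate block gave 4 and 3 genes in MUTZ-1, 8 and 18 in SKM-1, 10 and 2 for the difference and 3 and 22 between control lines, as without it. The correlation of deviations was -0.0283 to -0.00369 for same-numbered libraries and -0.0138 to 0.0358 for others, so same-numbered libraries showed no shared deviation. Whether they were cultured or prepared together cannot be read from these values. Depth limits the genes with at most 3 counts in a group.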
